A study of Mus musculus with 5 samples.

Results

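Extracellular and lysosomal proteases and the inhibitors that hold them in check were compared between Nrf2 cKO and wild-type cells sorted from healing mouse skin. The skin was taken 5 days after wounding, and markers of cells other than keratinocytes were also measured, as given below. The genes were chosen by name: every serpin, kallikrein, stefin, one-letter cathepsin and numbered ADAM gene, with Plau, Plaur, Plat, Slpi, Cst3, Cstb, Csta1, Spint1, Spint2 and St14, and without Serpinh1 and Serpinf1. Of the 10664 genes in the authors' deposited table, 54 were such genes. The annotation holds 151 protein-coding genes that the names cover, and the other 97 were not analysed here. By gene family, with named exceptions, 25 of the 54 were counted as proteases and 27 as inhibitors. The urokinase receptor gene Plaur and Serpinb5, a serpin without known inhibitory activity, were counted as neither.

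The study sorted live cells that carried the integrin CD49f and lacked blood lineage markers from skin around a 10 mm wound. There were 2 samples labelled Nrf2 cKO (K14Cre-ER; Nrf2 flox/flox) and 3 wild-type (WT) littermate samples (K14Cre-ER; Nrf2 +/+), so all 5 carried the K14Cre-ER transgene, whose promoter is that of keratin 14, a gene of basal keratinocytes. The design text asks which genes Nrf2, a transcription factor of antioxidant and detoxifying genes encoded by Nfe2l2, regulates in keratinocytes during repair. All values come from 1 comparison of the genotypes made by the authors. For each gene it holds a log fold change, a log mean level headed as CPM (counts per library total), a p-value and an adjusted p. The headers give no base, and base 2 was assumed for both, on which every fold and implied level here rests. The table's title names TPM, a unit also scaled by gene length, so the unit of the level is uncertain and CPM is used here as the header has it. It has no values for single samples. The age and sex of the mice, and whether each sample is 1 animal, are not given in the sources used here.

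In a healing wound, urokinase and tissue plasminogen activator turn plasminogen into plasmin, which dissolves the fibrin clot in front of migrating keratinocytes. Kallikreins and matriptase cut adhesion proteins and activate one another in the outer epidermis, cathepsins digest proteins mainly in lysosomes, and ADAMs release growth factors and receptors from the cell surface. Serpins trap proteases, mostly serine proteases, by an irreversible change of shape, while stefins and cystatins block cysteine cathepsins reversibly.

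Of the 54 genes, 5 fell in cKO and 0 rose past an adjusted p of 0.05 in the authors' deposited table. Over all genes, 2.15% were called lower and 0.459% higher at the same threshold. Among those that fell were the inhibitor genes Serping1, Stfa2 and Serpinb6c and the protease gene Ctsk. At an unadjusted p under 0.05 there were 10 lower genes and 1 higher gene, Serpina3i, beside 5.89% and 2.48% of all genes. The median fold change of the 54 genes was -0.36 on the log2 scale, against 0.00 over all genes, and 35 had lower and 19 higher values.

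Serping1 (ENSMUSG00000023224, chromosome 2, 84765387 to 84775444, minus strand, mm10) encodes the C1 inhibitor, which restrains complement and plasma kallikrein. It fell by 3.38 on the log2 scale in the authors' deposited table, with an implied standard error of 0.81 and an adjusted p = 0.00308. Its mean level was 7.39 CPM, which stands for 13.5 CPM in WT and 1.29 CPM in cKO if both genotypes weigh alike in that mean.

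Ctsk (ENSMUSG00000028111, chromosome 3, 95499256 to 95509362, plus strand, mm10) encodes cathepsin K, a collagen-degrading cysteine protease best known from osteoclasts. It fell by 3.81 in the authors' deposited table (implied standard error 1.09, adjusted p = 0.0228), with implied levels of 3.72 CPM in WT and 0.265 CPM in cKO. This gene had the lowest value of the 54 and, at 1.99 CPM, rested on a low mean level.

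Stfa2 (ENSMUSG00000022902, chromosome 16, 36403992 to 36408457, minus strand, mm10) encodes a stefin, a cytosolic inhibitor of cysteine cathepsins. It fell by 2.63 in the authors' deposited table (implied standard error 0.76, adjusted p = 0.0264), with implied levels of 25.3 CPM in WT and 4.08 CPM in cKO. Serpinb6c (ENSMUSG00000052180, chromosome 13, 33879816 to 33905708, minus strand, mm10) is 1 of several mouse copies of the intracellular serpin B6. It fell by 2.68 in the authors' deposited table (implied standard error 0.79, adjusted p = 0.0312), with implied levels of 5.47 CPM in WT and 0.853 CPM in cKO. The mean levels of these 4 genes lay between 1.99 and 14.7 CPM, and none of the 54 genes had an implied level under 0.05 CPM in either genotype.

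The standard errors are those that the deposited p-values imply under a normal approximation, and 95% intervals below are made from them. Among the 23 genes with a mean level of at least 16 CPM and an absolute value of at least 0.3, their median was 0.682 and the lowest 0.613. The 10 of these genes with higher values had errors of 0.613 to 0.632, and the 13 with lower values had 0.681 or more. The 95% intervals are therefore wider for these lower values, and the reason was not tested. The implied errors are no measure of each gene's own spread between samples. The smallest change called for any gene of the authors' deposited table was 2.20.

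Other call rules and member sets gave between 1 and 7 lower genes and 0 higher ones, the 7 being the count with Serpinf1 and Serpinh1 added. At a threshold of 0.01 there were 2 lower, beside 1.17% of all genes lower and 0.253% higher, and at 0.1 there were 6, beside 2.78% and 0.750%. The Benjamini-Yekutieli adjustment left 1, Serping1, beside 0.919% and 0.169%. With genes of at least 5 CPM alone there were 3, beside 0.980% and 0.178%. Without genes near the floor the count was 5, beside 1.80% and 0.415%. With the X and Y chromosomes and the other cells' markers removed it was also 5, beside 2.0% and 0.447%. Both settings kept all 54 genes, so only the adjustment changed, and they do not test the part of other cells or sex. In all, 14 of the 54 genes share over 10% of their 50-base transcript windows with another gene. Without these 14 the count was 4, beside 2.14% and 0.460%. Genes outside the 54 were not screened for shared windows, and Serpinb6c, at 9.92%, lay just under the limit.

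**Figure D1:**
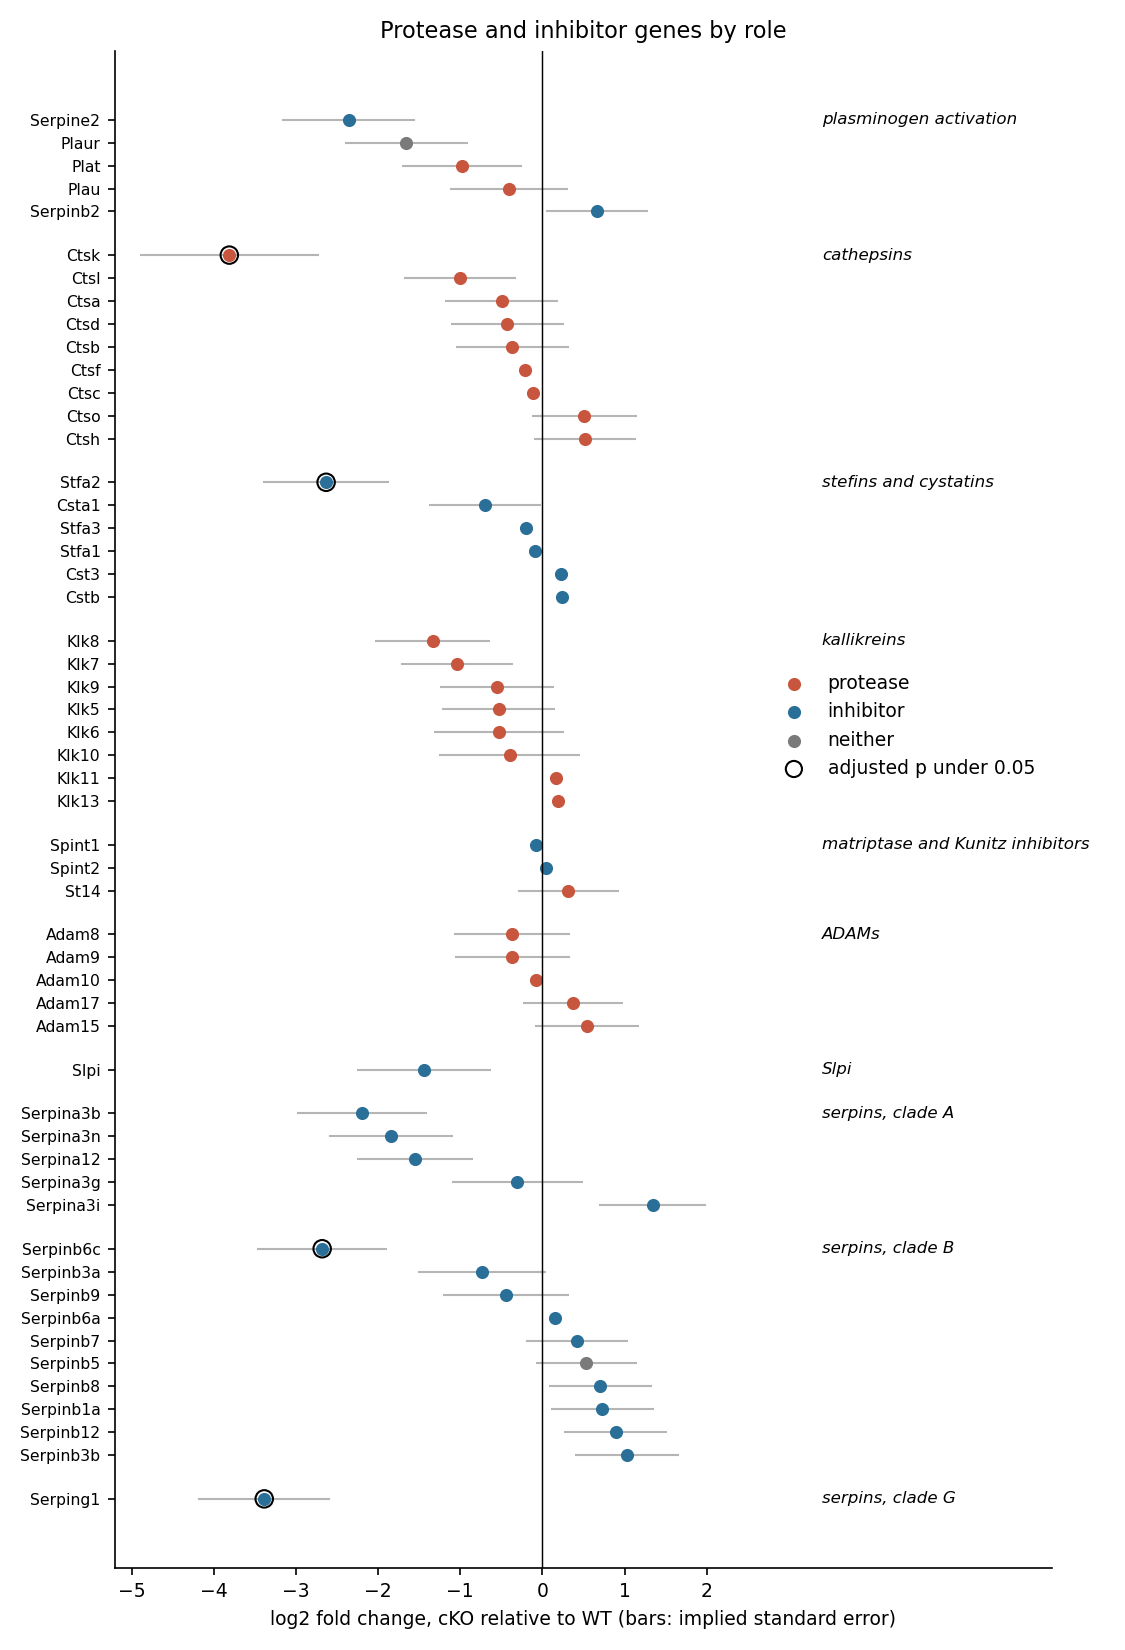
Log2 fold change of cKO relative to WT (horizontal axis) for 53 genes, grouped by role, with 1 point a gene. Grey bars are implied standard errors, drawn where the absolute value is at least 0.3, and the 4 ringed genes have an adjusted p under 0.05 and lie between -3.81 and -2.63.

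The sort removed cells with blood lineage markers, and the labels name no step against endothelial cells or fibroblasts. Of 10 analysed endothelial markers 7 fell, with a median of -3.40 and a summed implied level of 185 CPM in WT and 21.2 CPM in cKO, per the authors' deposited table. Of 8 analysed fibroblast markers 6 fell, with a median of -2.95 and summed implied levels of 1436 and 368 CPM. Of 10 neutrophil markers 3 were analysed, with a median of -1.83 and summed implied levels of 170 CPM in WT and 41.2 CPM in cKO. All 3 had lower values, and 1 of these, S100a9, which keratinocytes of wounds also make, fell by 2.48. The macrophage and dendritic cell markers had 3 of 11 genes analysed and 0 called, and no lymphocyte or Schwann cell marker was among the genes analysed. Of 4 analysed melanocyte markers 3 fell (median -2.37), and of 4 pericyte and muscle markers 0 were called (median -1.27). The mast cell, platelet and erythroid lists had 1, 1 and 2 genes analysed and 0 called. Basal and suprabasal keratinocyte markers were all analysed, 8 and 7 genes, with 0 called and medians of -0.24 and 0.27. C1 inhibitor, cathepsin K and the product of Serpine2 are also made by fibroblasts or endothelial cells. The part of other cells, neutrophils included, in the lower values of these genes and of Stfa2 and Serpinb6c was not tested. In bulk RNA, fewer cells of a type and less RNA per cell cannot be told apart. The Y-linked gene Ddx3y fell by 9.51 in the authors' deposited table, so a difference in the sex of the animals cannot be told apart from the genotype. The targeted gene Nfe2l2 had a value of -1.99 (adjusted p = 0.126 in the authors' deposited table).

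In plasminogen activation, the 2 activators had lower values that did not pass: Plat, the tissue-type activator, had -0.98 (95% interval -2.40 to 0.45) and Plau, urokinase, had -0.41 (-1.82 to 1.0) in the authors' deposited table. Plaur, which holds urokinase at the cell surface, had -1.66 in the authors' deposited table (adjusted p = 0.409), at implied levels of 14.7 CPM in WT and 4.66 CPM in cKO. Serpine2, protease nexin, which blocks thrombin and urokinase, had -2.36 with an adjusted p = 0.0998 in the authors' deposited table.

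Serpinb2, an inhibitor of plasminogen activators found inside cells and secreted, had a higher value. It was 0.66 (95% interval -0.56 to 1.88) at a mean level of 16176 CPM in the authors' deposited table, or 1.61% of the summed level of all 10664 genes. The implied levels were 12540 CPM in WT and 19812 CPM in cKO, a difference that did not pass (adjusted p = 1 in the authors' deposited table). Of the 50-base windows in Serpinb2 transcripts, 10.4% also occur in another gene, Serpinb10.

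Among the 9 cathepsin genes, Ctsk passed the test and the other 8 had values between -1.0 and 0.52 in the authors' deposited table. Ctsl, whose product cathepsin L processes proteins in keratinocyte lysosomes, had -1.0 (adjusted p = 0.977 in the authors' deposited table), with implied levels of 153 CPM in WT and 76.7 CPM in cKO. Ctsd, the aspartic protease cathepsin D, had -0.43 at a mean level of 255 CPM in the authors' deposited table. Ctsb had -0.36 and Ctsa, a serine carboxypeptidase, had -0.50. Ctsc, which activates granule serine proteases, had -0.12 and Ctsf had -0.22, while Ctsh and Ctso had 0.52 and 0.51 in the authors' deposited table. Each of these 8 had an adjusted p of 0.977 or more. Of the 50-base windows of Ctsd and Ctsl, 32.4% and 26.3% also occur in other genes. For Ctsb and Ctsa the shares were 12.1% and 11.6%, so the reads assigned to these genes are uncertain.

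The stefins and cystatins, which inhibit these enzymes, had 1 of 6 genes called, Stfa2. Its neighbours in the stefin cluster of chromosome 16 had values closer to 0 that did not pass: Stfa1 had -0.09, Stfa3 -0.20 and Csta1 -0.70 in the authors' deposited table. Stfa3 had a mean level of 604 CPM and Stfa1 of 139 CPM. Cystatin C (Cst3), the secreted inhibitor, had 0.23 at 419 CPM, and stefin B (Cstb) had 0.24 at 501 CPM, both with an adjusted p of 1 in the authors' deposited table. Stefin copies are alike in sequence: 15.9% of the 50-base windows in Stfa2 transcripts and 22.5% of those in Stfa1 also occur in transcripts of another gene, mainly Stfa2l1 and BC100530. The authors' assignment of reads between such copies is uncertain, and Stfa2 is therefore an uncertain call.

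Kallikreins are secreted serine proteases, and the 8 analysed lie in one cluster on chromosome 7. None passed the test, and none had an unadjusted p under 0.05 (0 of 8), with a median of -0.53 and values from -1.34 to 0.18 in the authors' deposited table. Klk7, a protease that cuts corneodesmosomes so that surface cells can be shed, had -1.04 (95% interval -2.38 to 0.29, adjusted p = 0.937 in the authors' deposited table), with implied levels of 799 CPM in WT and 388 CPM in cKO. Klk8, known as neuropsin, had -1.34 (-2.70 to 0.03, adjusted p = 0.629), and its implied levels were 64.1 CPM in WT and 25.4 CPM in cKO, per the authors' deposited table. Klk5, which activates Klk7, had -0.53 and Klk9 had -0.55. Klk6 and Klk10 had -0.53 and -0.40, while Klk11 and Klk13 at the other end of the cluster had 0.16 and 0.18 in the authors' deposited table. Values were lower for the 6 analysed genes from Klk10 to Klk5 in chromosomal order, and neighbours share position, so they are not independent observations. Of the Klk8 windows, 21.7% also occur in the overlapping gene 2310002F09Rik.

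Matriptase (St14), a membrane serine protease that activates prostasin, and its Kunitz inhibitors had values near 0. The authors' deposited table gave St14 0.32 (95% interval -0.89 to 1.52), Spint1 -0.08 and Spint2 0.04, each with an adjusted p of 1. Among the 5 ADAM genes 0 were called. Adam17, the main sheddase of tumour necrosis factor and of several EGF receptor ligands, had 0.37 (-0.83 to 1.57) at 134 CPM in the authors' deposited table. Adam10, which cuts Notch receptors, had -0.08. Adam8 had -0.37, Adam9 -0.36 and Adam15 0.54 in the authors' deposited table. Of the Adam15 windows, 15.4% also occur in other genes. Slpi, a secreted inhibitor of neutrophil elastase, had -1.44 in the authors' deposited table (-3.04 to 0.16, adjusted p = 0.744), and its mean level was 1.87 CPM.

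The other serpins are described by clade and gene cluster. The 7 clade B genes of chromosome 1 had a median of 0.66 with 6 higher values and 1 lower, and 0 were called in the authors' deposited table. As neighbours they are not independent observations. Most of the 7 had a mean level of at least 100 CPM, where 1323 of all 1986 genes had higher values. Serpinb3b had 1.03 (95% interval -0.21 to 2.27), Serpinb12 0.89, Serpinb8 0.70, Serpinb5, also called maspin, 0.54 at 1674 CPM, and Serpinb7 0.42, with Serpinb2 as given above. Serpinb3a, a close copy of Serpinb3b, had -0.74 (-2.26 to 0.79) in the authors' deposited table. Of the windows of Serpinb3a and Serpinb3b, 15.0% and 14.7% also occur in other genes, so the reads assigned to each are uncertain.

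The 4 clade B genes of chromosome 13 had values of both signs. Serpinb6c fell, Serpinb6a, an inhibitor of cathepsin G, had 0.16, Serpinb9, an inhibitor of granzyme B, had -0.44 and Serpinb1a, an inhibitor of neutrophil elastase, had 0.73 in the authors' deposited table. Of the Serpinb6c windows, 9.92% occur in other genes, and of the Serpinb6a windows 25.1%, with 12.5% in Nqo2, a neighbouring gene. The assignment of reads between such copies is uncertain, so the call of Serpinb6c is uncertain as well.

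Clade A serpins, mostly secreted, had 4 of 5 lower values and a median of -1.55 with 0 called, while 3 lower and 1 higher had an unadjusted p under 0.05. Serpina3b had -2.20 (adjusted p = 0.136), Serpina3n, which inhibits granzyme B, had -1.84 (0.276) and Serpina12, known as vaspin, an inhibitor of kallikrein KLK7 in human, had -1.55 (0.426) in the authors' deposited table. Serpina3i had 1.34 in the authors' deposited table (95% interval 0.06 to 2.62, adjusted p = 0.529), and Serpina3g -0.31. Of the windows of these last 2 genes, 15.9% and 15.5% also occur in other genes, with 9.82% and 8.89% in Serpina3h. Serpinf1 and Serpinh1, left out by the naming rule and known as an anti-angiogenic secreted protein and a collagen chaperone, fell by 5.26 and 2.80 in the authors' deposited table, and neither is a protease inhibitor.

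**Figure D2:**
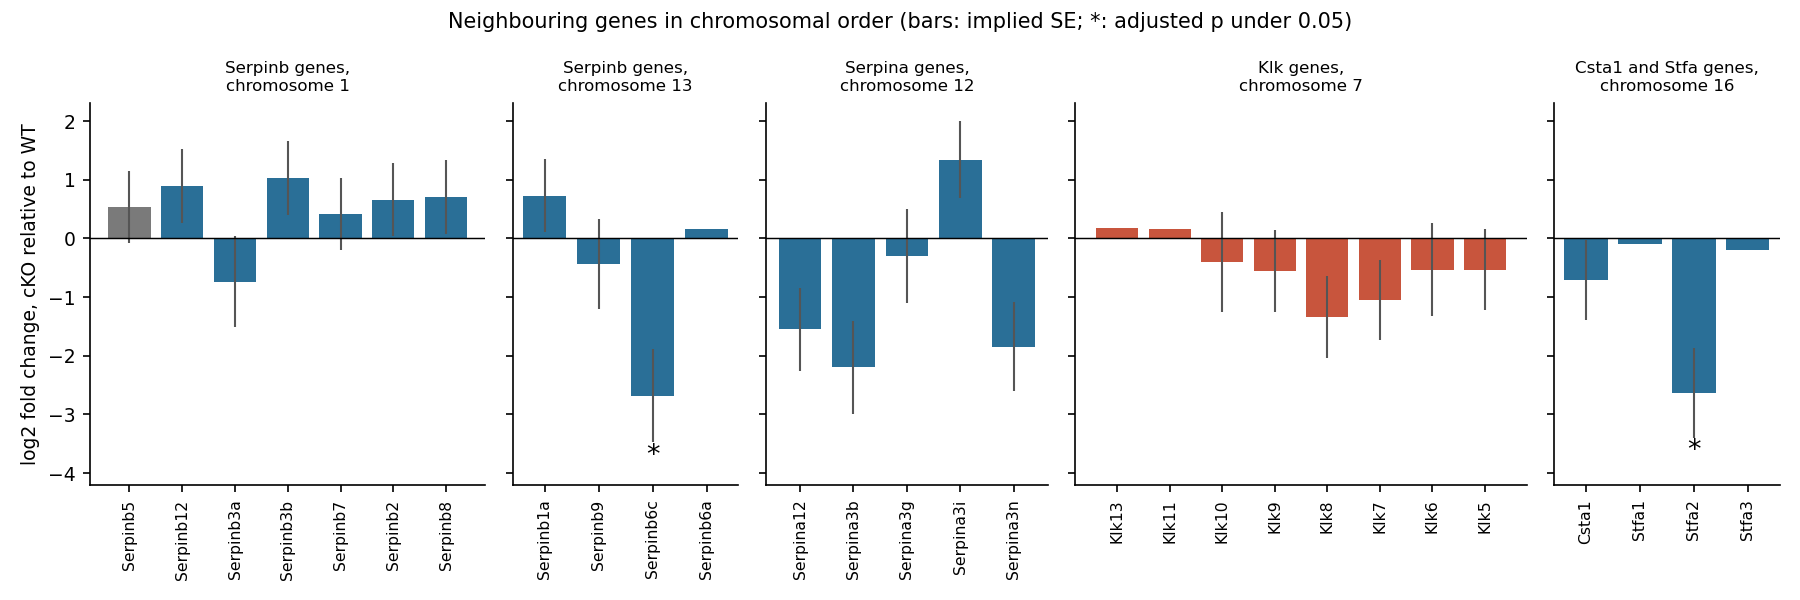
Log2 fold change of cKO relative to WT (vertical axis) of neighbouring genes in chromosomal order, 1 bar a gene, with implied standard errors where the absolute value is at least 0.3. In the Serpinb cluster of chromosome 1, 6 of 7 bars point up, and the 6 analysed kallikrein genes from Klk10 to Klk5 point down. Asterisks mark Serpinb6c and Stfa2 (adjusted p under 0.05).

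Proteases and inhibitors were then set against each other. The 25 proteases had a median of -0.37 with 18 lower and 7 higher values, and the 27 inhibitors a median of -0.20 with 16 lower and 11 higher values, in the authors' deposited table. The medians differed by -0.17 (proteases minus inhibitors), and no test was run on this difference. Without the genes that share over 10% of their windows, 19 of each class remained and the difference was 0.076, so its direction turned. The inhibitors were the more spread class: their middle values reached from -1.70 to 0.33 between quartiles, against -0.53 to 0.16 for the proteases. An absolute value over 1 was found in 11 inhibitors and 4 proteases. Of the inhibitors 4 were called lower and of the proteases 1, which is 14.8% and 4.00%, beside 2.15% of all genes.

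Within the inhibitors the values went with the mean level. Of the 14 inhibitors under 20 CPM, 12 had lower values, with a median of -1.70, whereas all genes under 20 CPM had a median of -0.18. All 4 inhibitors that fell were among them, in a band where 4.17% of all genes were called lower. The 10 inhibitors at 100 CPM or more had a median of 0.24 with 4 lower and 6 higher values, beside 0.12 for all genes at that level, where 0.252% were called lower. The 3 inhibitors from 20 to 100 CPM had a median of 0.16. The proteases had medians of -0.41 for the 9 under 20 CPM, -0.12 for the 11 from 20 to 100 CPM and -0.43 for the 5 above, and the difference between the classes in this respect was not tested. Among all 30 genes at 20 CPM or more the values lay between -1.34 (Klk8) and 1.03 (Serpinb3b), and 0 were called. The bands were chosen after the values were seen. It is not stated whether the CPM values were also scaled by gene length. The sorting of genes into these bands, and any comparison of levels between genes, therefore rests on an uncertain unit.

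**Figure D3:**
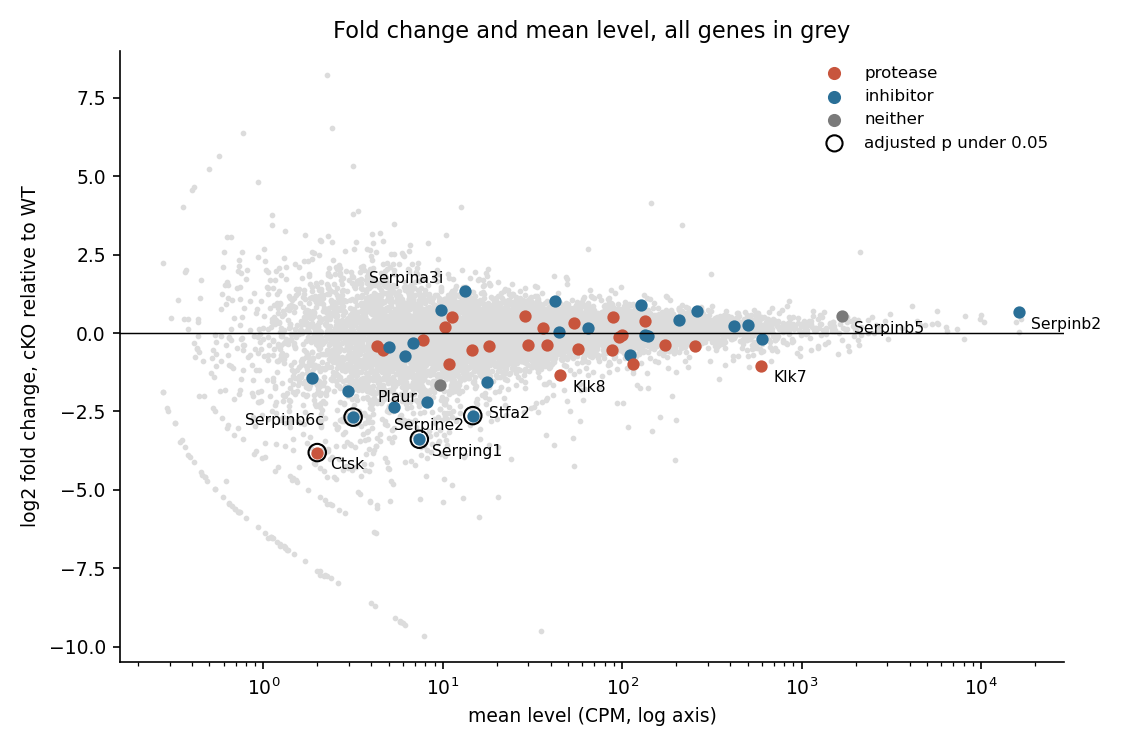
Log2 fold change of cKO relative to WT (vertical axis) against mean level in CPM (horizontal log axis), with all 10664 genes in grey and 53 of the 54 genes coloured by class. The 4 ringed genes, with an adjusted p under 0.05, lie between 1.99 and 14.7 CPM, and Serpinb2 lies far to the right at 16176 CPM.

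**Figure D4:**
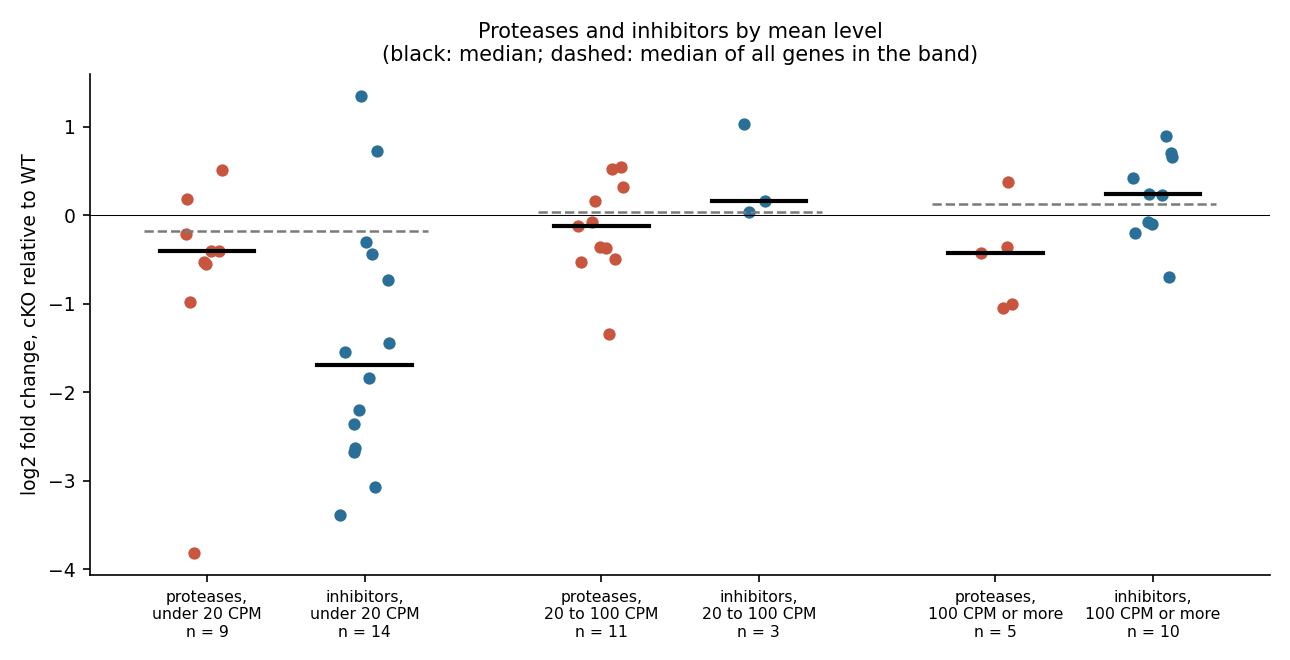
Log2 fold change of cKO relative to WT (vertical axis) for proteases and inhibitors in 3 bands of mean level, 1 point a gene. Black lines are class medians and dashed grey lines the median of all genes in the band. Inhibitors under 20 CPM have a median of -1.70 and those at 100 CPM or more 0.24.

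Promoter windows, from 250 bases before to 50 bases after each start in RefSeq on GRCm38.p6, the assembly of mm10, were found for 44 of the 54 genes, in 50 windows. Those without a window included Adam9, Cstb, Ctsb, Ctsh, Plat, Plau, Serpinb1a, Serping1 and St14. Nrf2 binds with small Maf proteins to the antioxidant response element, whose core letters TGACNNNGC were searched on both strands. They occur in 4 of the 50 windows, or 8.0%, and in 12.4% of all 32851 windows. The 4 genes were Ctsd, Serpinb12, Serpinb6a and Spint2, with values of -0.43, 0.89, 0.16 and 0.04 in the authors' deposited table, none of which passed the test. Their matches are shown on the strand of the gene and with the core in capitals. Letters beginning with GC are the core read on the other strand. In GENCODE the Ctsd stretch, which holds 2 matches, lies in an annotated UTR. Those of Serpinb12 and Serpinb6a lie in introns of longer transcripts, the latter also in an exon of 1110046J04Rik, and that of Spint2 lies outside the gene.
Ctsd, chr7:142387866-142387889, minus strand: TGACTCCGCgggactGCGGCGTCA
Serpinb12, chr1:106938784-106938836, plus strand: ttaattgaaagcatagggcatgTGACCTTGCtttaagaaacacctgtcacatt
Serpinb6a, chr13:33936234-33936286, minus strand: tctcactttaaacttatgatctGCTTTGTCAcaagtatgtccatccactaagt
Spint2, chr7:29282069-29282121, minus strand: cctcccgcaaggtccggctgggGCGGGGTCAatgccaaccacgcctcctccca

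The AP-1 site TGACTCA, a related element of wound-activated genes, occurs on either strand in 5 of the 50 windows (10.0%, against 5.20% of all windows), those of Plaur, Serpinb7, Serpinb8, Spint1 and Stfa3. It can lie within a longer antioxidant response element, but none of the 5 genes holds the core above. The matches before the start of Plaur, which had -1.66, and of Serpinb7 and Serpinb8, which had 0.42 and 0.70 in the authors' deposited table, are shown with the site in capitals. Those of Plaur and Serpinb8 lie outside the gene in GENCODE, and that of Serpinb7 in an intron.
Plaur, chr7:24462392-24462442, plus strand: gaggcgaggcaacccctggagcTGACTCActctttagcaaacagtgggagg
Serpinb7, chr1:107422622-107422672, plus strand: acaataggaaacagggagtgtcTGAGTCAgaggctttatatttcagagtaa
Serpinb8, chr1:107589961-107590005, plus strand: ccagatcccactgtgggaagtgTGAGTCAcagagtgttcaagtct

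Among the genes that fell, Ctsk, Serpinb6c and Stfa2 have a window, and none of the 3 holds either element. For Ctsk and Serpinb6c, as the genes that fell whose sequence before the start holds no annotated UTR, the 100 bases before the RefSeq start are shown. The Ctsk stretch lies outside the gene and the Serpinb6c stretch in an intron of GENCODE.
Ctsk, chr3:95499110-95499209, plus strand: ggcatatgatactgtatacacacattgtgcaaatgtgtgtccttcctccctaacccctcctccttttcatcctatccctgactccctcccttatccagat
Serpinb6c, chr13:33905192-33905291, minus strand: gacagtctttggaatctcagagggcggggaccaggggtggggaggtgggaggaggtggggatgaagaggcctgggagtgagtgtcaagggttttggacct

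The other elements searched on both strands were spread as follows. The Smad box CAGACA occurs in 14.0% of the 50 windows, Ctsk among them, and in 21.0% of all windows. The hypoxia response core ACGTG occurs in 22% and 19.6%, and the cyclic AMP response element TGACGTCA in 0 of the 50 windows and in 1.79% of all.

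Other genes of pericellular proteolysis were taken from a list of 93 names, of which 48 were analysed. In this list 7 genes fell and 0 rose in the authors' deposited table, or 14.6% beside 2.15% of all genes called lower, with a median of -0.29. The 4 with the smallest p were Timp1, an inhibitor of matrix metalloproteinases, which fell by 5.30, the metalloproteinase genes Mmp9 and Mmp13, which fell by 4.83 and 3.94, and the aggrecanase gene Adamts4, which fell by 4.72. The list was written with results for several of these genes known, so its count is no independent evidence.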

How the data were processed

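RNA of 2 cKO and 3 WT samples was read by paired-end sequencing. The submitters' processing notes name Trimmomatic 0.35, STAR 2.6.0c, RSEM and the build mm10. Per the file headers, the authors deposited for each gene a log fold change and a log CPM level, beside a p-value and its false discovery rate (the adjusted p). The headers give no base: the deposited values were taken as log2, under which the levels sum to 1.00436e+06, near the total of CPM or TPM. That sum does not bear on the base of the fold change, which is assumed. No source used here names the tool that made this comparison or the libraries in it, so depth per sample is unknown. Whether samples were separate animals is not stated, so p-values may measure technical spread. Text notes in the second sheet show that a positive deposited sign means higher in WT, and all signs were turned to cKO relative to WT.

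Calls are the authors' adjusted p under 0.05 over 10664 genes. Recomputing it by Benjamini-Hochberg gave a largest difference of 7.17e-15. The readjustment was tested on simulated data. Symbols (10655 matched) and positions are from GENCODE vM21. Named genes were Nfe2l2, the called genes, up to 4 genes per role with the smallest p, the gene of highest level per role and listed core genes. Other members are given to complete the account, chosen after their values were seen. Of the 54 genes, 1 is counted in totals and medians but its own values are not reported here. Promoter windows are from RefSeq, and stretches with over 30 UTR bases were trimmed or not printed. The gene lists, roles and tests were chosen with earlier results of these data known. The list of related genes holds Cap1, an actin regulator, by a mistake of name. Alternatives were other thresholds, the Benjamini-Yekutieli adjustment, a level filter of 5 CPM, and leaving genes out. The computation ran in Python 3.11.15 with pandas 2.3.3, NumPy 2.4.6 and SciPy 1.17.1, and figures were drawn with matplotlib 3.10.9.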

Additional observations from a re-analysis of the deposited data

How the results depend on the processing

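The count of 5 genes called lower became 2 at a threshold of 0.01 (Serping1 among them), 1 under the Benjamini-Yekutieli adjustment (Serping1) and 3 with a level of at least 5 CPM, which removed Ctsk and Serpinb6c. It was 6 at a threshold of 0.1, which added Serpine2, 4 without genes that share over 10% of their windows, and 7 with Serpinf1 and Serpinh1. It stayed at 5 without near-floor genes and without markers of other cells and genes on X and Y. Both of these settings kept all 54 genes and changed only the adjustment, so they do not test the part of other cells or sex. Genes called higher numbered 0 in each of these settings. Over these settings the adjusted p ranged from 0.00308 to 0.0304 for Serping1, from 0.0228 to 0.225 for Ctsk, from 0.0264 to 0.261 for Stfa2 and from 0.0312 to 0.307 for Serpinb6c.

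The protease median of -0.37 was -0.36 with the level filter, -0.38 without the Stfa genes, Slpi and Adam8, and -0.36 without genes sharing windows. The inhibitor median of -0.20 was -0.085 with the level filter, -0.15 with Serpinb5 counted as an inhibitor by its name, -0.075 without the Stfa genes, Slpi and Adam8, -0.31 with Serpinf1 and Serpinh1, -0.44 without genes sharing windows and -0.075 without the called genes. Proteases minus inhibitors, -0.17, was in the same order -0.28, -0.22, -0.31, -0.062, 0.076 and -0.29, so its sign turned without genes sharing windows. The settings with Serpinf1 and Serpinh1, without genes sharing windows and without the called genes were chosen after the data were seen. Stricter thresholds lower counts by construction, and elsewhere the cause was not tested. No paired analysis was possible because the table carries no value per sample, and leaving out replicates was not run for the same reason.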
